A study of Homo sapiens with 20 samples.

Results

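The comparison described here is that of wild-type (WT) HCT-116 cells, an established line from a human colorectal carcinoma, in which HDAC4 had been silenced, with and without oxaliplatin (OXPT). Cells were transfected for 48 h with esiRNA against HDAC4 (esiHDAC4), a pool of short interfering RNAs made by endonuclease digestion, and either were left untreated (UNT) or received 50 µM OXPT for the last 24 h. Both groups carried an intact FBXW7 gene and the same silencing, so the only difference named by the labels is the drug. Each group had 2 libraries, with the replicate letters A and B, and these are 4 of the 16 H3K27ac chromatin immunoprecipitation sequencing (ChIP-seq) libraries of the series, which also holds control-silenced (esiCT) cells and FBXW7 knock-out (KO) cells. The study describes A and B as biological replicates, and the labels state that 3 independent experiments were pooled for the chromatin.

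The peak lists of the 4 libraries on chromosomes 1 to 22 and X were merged by an overlap of 1 bp, which gave 39839 regions. A region was taken as gained when both OXPT libraries and neither UNT library held a peak there, and as lost in the opposite case. Of the 39839 regions, 597 were gained (1.5%) and 1981 were lost (4.97%). The same rule applied to the super-enhancer (SE) lists gave 1184 merged SE regions, of which 28 were gained (2.36%) and 79 lost (6.67%). The words gained and lost stand for these patterns of calls, for which no test was made, since the calls themselves chose the regions.

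Acetylation of lysine 27 on histone H3 marks active promoters and enhancers, and SEs are stretches of clustered enhancers with an unusually high load of the mark. HDAC4 is a class IIa histone deacetylase that acts as a corepressor of transcription factors such as those of the MEF2 family. Oxaliplatin forms platinum adducts on DNA and disturbs ribosome synthesis. The DNA damage response that follows such lesions stabilises p53, a transcription factor that binds a palindromic site and activates genes of cell cycle arrest and death, while genes of mitosis are repressed by a separate complex that binds the CHR element of their promoters.

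Sites of p53 are shown first because they were found in gained but not in lost regions. The canonical site is 20 bases long and consists of a 10-base element in tandem, each with a core of C, A or T, A or T, and G. It was searched in 1000 bases around the summit of each region, with both cores intact and at most 1 mismatch elsewhere; being palindromic it was read on both strands at once. The gained regions with an exact match and the highest summit folds are listed here by their assigned gene, with the site in capitals and 20 bases on each side in lower case.
MED4: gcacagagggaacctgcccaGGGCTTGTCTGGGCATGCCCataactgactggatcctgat
SYNE1: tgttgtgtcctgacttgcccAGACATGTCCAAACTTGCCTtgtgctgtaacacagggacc
SFSWAP: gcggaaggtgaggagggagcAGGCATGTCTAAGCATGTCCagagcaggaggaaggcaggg
PLXDC1: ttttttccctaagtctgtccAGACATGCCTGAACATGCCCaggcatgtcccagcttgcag
CDH9: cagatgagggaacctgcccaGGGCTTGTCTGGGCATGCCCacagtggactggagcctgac
IFNGR2: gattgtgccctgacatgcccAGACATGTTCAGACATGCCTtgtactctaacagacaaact
DLEU7: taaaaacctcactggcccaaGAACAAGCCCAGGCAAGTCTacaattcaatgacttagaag
All are written on the + strand of hg38, and the windows lie as follows: MED4 at chr13:48066724-48066783, SYNE1 at chr6:152221975-152222034, SFSWAP at chr12:131721025-131721084, PLXDC1 at chr17:39046846-39046905, CDH9 at chr5:27472145-27472204, IFNGR2 at chr21:33367363-33367422 and DLEU7 at chr13:50731594-50731653. Each of these 7 regions was called in both OXPT libraries and in neither UNT library of the HDAC4-silenced cells. Throughout, a region with a site is one whose 1000-base window held it, and this window can reach past the called peak. The CDH9 site, for example, lay outside its gained region at chr5:27471479-27471989. The bases around the site of MED4 resembled those of CDH9, with 72.5% identity over the 40 flanking bases, and those of SYNE1 resembled the site near NMUR2, with 82.5% identity. Among all 299 regions with a site, 108 (36.1%) had flanks at least 70% identical to those of another such region, which was also the case for 28 of the 68 gained ones (41.2%).

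A p53 site was present in 68 of the 597 gained regions (11.4%), in 0 of the 1981 lost regions, in 25 of the 6753 regions called in all 4 libraries (0.37%) and in 299 of all 39839 merged regions (0.751%). With no mismatch allowed the site was found in 26 gained regions (4.36%), no lost region and 0.261% of all regions. When 2 mismatches were allowed it was found in 106 gained (17.8%) and 5 lost regions (0.252%), against 1.66% of all. Among regions away from start sites 67 of 481 gained regions (13.9%) held a site, against 0 of 963 lost ones and 1.17% of all. Within the gained regions the centre of the site lay a median of 245 bp from the summit (quartiles 165 and 331 bp), and in 8 of 68 regions it lay within 100 bp. The search window limits how far from the summit a site could be found. Whether sites lay nearer to or farther from the summit than this window alone would give was not tested. In 200 bases around the summit the site was present in 7 gained regions (1.17%), against 0.131% of all.

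**Figure D1:**
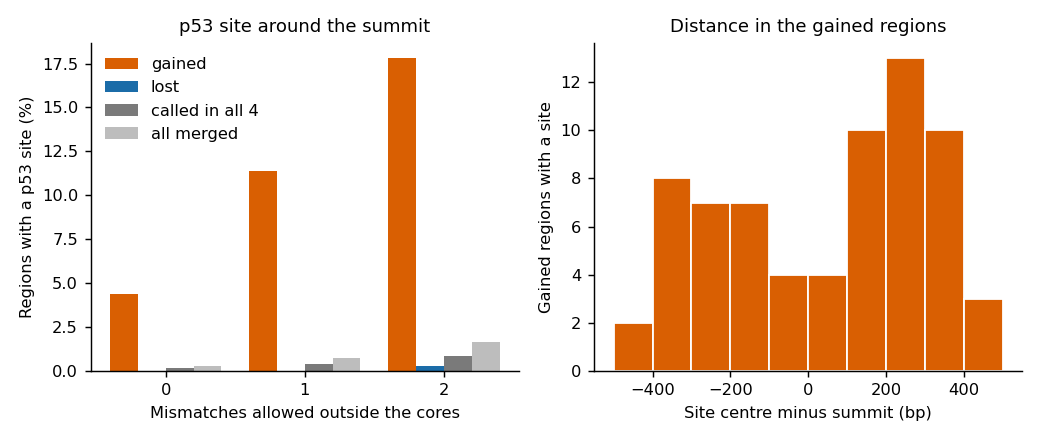
Left, share of peak regions (%) with a p53 site in the 1000 bases around the summit, by the number of mismatches allowed outside the cores, for gained, lost, shared and all merged regions. Right, number of gained regions with a site (at most 1 mismatch) by the distance in bp from summit to site centre. With at most 1 mismatch the site was in 11.4% of gained and 0% of lost regions, and most gained sites lay more than 100 bp from the summit.

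Read the other way, the 299 merged regions with a site were called in 41 cases in UNT A (13.7%), 51 in UNT B (17.1%), 199 in OXPT A (66.6%) and 202 in OXPT B (67.6%). Over all merged regions the corresponding shares were 45.1%, 63.2%, 44.5% and 40.9%. Both OXPT libraries called more of the p53-site regions than either UNT library, while over all regions neither OXPT library called more than a UNT library. Of the 299 regions 68 were gained (22.7%), 0 were lost and 25 were called in all 4 libraries. Since the regions were merged from these same lists, these shares are a description: 232 of the 299 (77.6%) entered through OXPT calls alone and 13 (4.35%) through UNT calls alone, compared with 23.2% and 36.4% of all merged regions.

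Other motifs were searched in the same windows. The AP-1 motif TGANTCA, bound by FOS and JUN dimers, occurred in 34.0% of gained, 28.4% of lost and 31.7% of all regions (1000 bases, both strands). The MEF2 motif occurred in 17.1% of gained, 16.9% of lost and 15.2% of all regions. The GC box GGGCGG, bound by SP1 and its relatives, was found in 33.2% of gained, 55.9% of lost and 46.2% of all regions, and within start-site regions in 66.4% of gained, 80.4% of lost and 76.9% of all. A match describes the letters of the window and is not evidence of binding.

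The gained and lost regions differed in where they lay. A start site of a protein-coding gene was within 1 kb of 116 of the 597 gained regions (19.4%) and of 1018 of the 1981 lost regions (51.4%), compared with 38.7% of all merged regions and 59.1% of the regions called in all 4 libraries. Of the gained regions 256 (42.9%) lay within a gene and 225 (37.7%) between genes; for lost regions the numbers were 461 (23.3%) and 502 (25.3%). Away from start sites, gained regions were a median of 24.4 kb and lost regions 29.0 kb from the nearest start. Of the 15405 merged regions at start sites 0.753% were gained and 6.61% lost. Among regions whose lower summit fold was 4 or more, 23 of 94 gained regions (24.5%) and 210 of 349 lost regions (60.2%) were at start sites. When only peaks with a −log10 q of at least 10 were used, the start-site shares were 42.1% of 19 gained and 48.8% of 209 lost regions, so the contrast was smaller there.

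**Figure D2:**
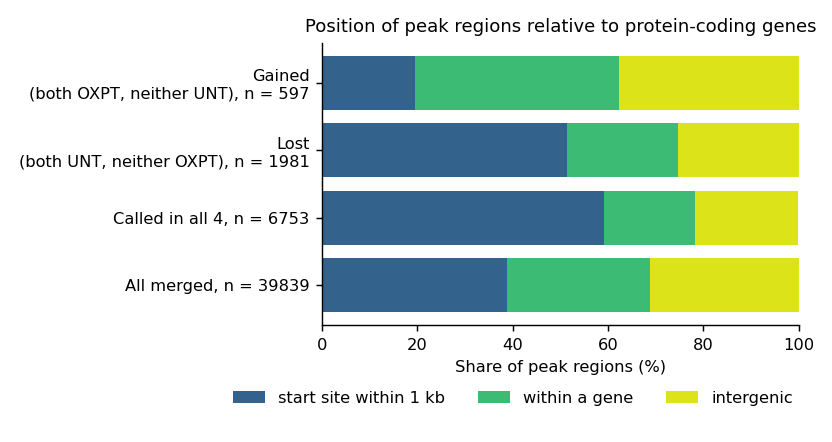
Share (%) of peak regions with a start site within 1 kb, within a gene or between genes, for gained, lost, shared and all merged regions. Gained regions had the smallest start-site share (19.4%) and regions called in all 4 libraries the largest (59.1%).

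A loss at a start site did not always mean that the gene had no peak left there. The 1018 lost start-site regions touched 1137 genes, and 541 of these had no peak within 1 kb of any of their start sites in either OXPT library. The 116 gained start-site regions touched 124 genes, of which 29 had no start-site peak in either UNT library. Over all 10823 protein-coding genes with a start site called in at least 1 library, 730 (6.74%) were called in both UNT but in no OXPT library and 55 (0.508%) in the reverse pattern, while 4513 (41.7%) were called in all 4.

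The strength of the switched regions was modest. The summit fold is the authors' ratio of reads at the summit to the local background, each with 1 read added. Gained regions had a median fold of 3.89 in OXPT A and 3.58 in OXPT B, and lost regions 4.03 in UNT A and 3.66 in UNT B, whereas the regions called in all 4 had medians between 4.21 and 4.92 per library. The lower of both folds ran from 1.6 to 5.93 in gained and from 1.28 to 6.23 in lost regions. These folds rested on a median of 16 and 17 reads at the summit in gained regions and of 13 and 18 in lost regions. Just inside the calling limit lay 105 gained (17.6%) and 303 lost regions (15.3%) with a −log10 q under 2 in 1 of their libraries; just outside the rule lay 1346 regions called in both OXPT and 1 UNT library and 3787 called in both UNT and 1 OXPT library.

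Depth differed between the libraries in a way that touches these counts. Total read numbers per library are not in the files used, and the reads recovered from fold and p showed the lowest background in UNT A (1.65 reads), then OXPT A (2.2), OXPT B (2.61) and UNT B (2.82). At its lowest background UNT A needed a fold of 3.4 for a call and the OXPT libraries 3.12 and 3.04. Of the lost regions 1400 (70.7%) had both folds at or above the 3.12 that the OXPT libraries could call at lowest background, and of the gained regions 290 (48.6%) had both folds at or above the 3.4 of UNT A. The lists also differed in length, with 20234 and 27335 peaks in UNT A and B and 20136 and 19352 in OXPT A and B. When all lists were limited to the strongest 19352 peaks, 802 regions were gained and 1326 lost, so that the direction held and the excess of lost regions was smaller.

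The 10 gained regions with the highest lower fold were assigned to PLEKHG4B, BBS4, ABCB9, EFCAB5, TMEM260, TBC1D22A, DERA, ARVCF, WSB1 and POMZP3. The region of BBS4, a subunit of the BBSome that carries cargo to the primary cilium, lay at chr15:72686545-72687438 within 1 kb of the start site and had folds of 5.83 in OXPT A and 6.11 in OXPT B, from 19 and 23 reads. The region of ABCB9, a lysosomal peptide transporter, lay at chr12:122946127-122947515 at the start site with folds of 6.43 and 5.25, and held a p53 site with 2 mismatches. An intergenic region 29.8 kb from the start of TMEM260 (chr14:56665726-56667117) had folds of 5.47 and 5.19 and held a p53 site with 1 mismatch. An intronic region of DERA, the deoxyribose-phosphate aldolase, at chr12:15936221-15937288 had folds of 5.12 and 5.26 and was called in 5 of the other 6 OXPT libraries of the series and in none of the other 6 UNT libraries. The intronic region of TBC1D22A (chr22:47128786-47130868, folds 5.15 and 6.09) was called in all 6 other OXPT and in 0 other UNT libraries. By contrast the region of ABCB9 was called in 6 other OXPT and 4 other UNT libraries, and that of BBS4 in 4 and 3. PLEKHG4B was assigned to a subtelomeric region 77.7 kb from its start (folds 5.93 and 7.47); it and POMZP3 lie in sequence with near-identical copies elsewhere in the genome, so their reads are uncertain.

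The 10 lost regions with the highest lower fold were assigned to TFG, LIMS4, AP3B1, FEZF1, ISOC2, SBDS, ELOVL5, ARHGAP18, BLID and NOTCH1, and 6 of them lay at start sites. LIMS4 has near-identical copies nearby, so its reads are uncertain. The region at the start of TFG, a protein of vesicle export from the endoplasmic reticulum, lay at chr3:100708714-100709217 and had folds of 8.19 in UNT A and 6.23 in UNT B from 24 and 30 reads. At the start of NOTCH1, the receptor of the NOTCH pathway, the region chr9:136544910-136545787 had folds of 5.24 and 6.02, and other peaks within 1 kb of a NOTCH1 start were called in OXPT A and B with folds of 4.01 and 3.25. The region at the start of SBDS, a ribosome maturation factor (chr7:66994451-66995520), had folds of 5.35 and 5.45. That of AP3B1, a subunit of the adaptor complex of lysosome-related organelles (chr5:78293851-78294658), had folds of 5.51 and 5.85. For sequence context the 200 bases around the summits of the leading start-site regions of each direction are given, BBS4 gained (chr15:72686843-72687042) and TFG lost (chr3:100708890-100709089), on the + strand of hg38 with CCAAT boxes and GC boxes of either strand in capitals.
BBS4: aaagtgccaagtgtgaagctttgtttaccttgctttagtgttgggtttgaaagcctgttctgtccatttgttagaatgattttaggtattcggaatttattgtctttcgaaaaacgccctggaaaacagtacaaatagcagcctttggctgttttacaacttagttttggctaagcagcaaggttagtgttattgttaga
TFG: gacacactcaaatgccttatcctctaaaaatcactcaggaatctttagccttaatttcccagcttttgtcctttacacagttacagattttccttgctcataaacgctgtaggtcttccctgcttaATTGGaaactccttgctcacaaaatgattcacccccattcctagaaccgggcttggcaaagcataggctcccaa
Neither window held a GC box, and the TFG window held 1 CCAAT box on the reverse strand.

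Regions near genes of mitosis were lost and not gained. Within 10 kb of the 14 listed mitotic genes lay 40 merged regions, of which 11 (27.5%) were lost and 0 gained, compared with 5.24% lost and 1.44% gained among all 30514 regions within 10 kb of a protein-coding gene. A lost region was present at 8 of the 14 genes, namely CCNA2, CCNB1, PLK1, AURKA, AURKB, BUB1B, TOP2A and KIF11; over all 14130 genes with a region 14.8% had a lost and 4.19% a gained one. Start sites of the mitotic genes were called for 12 of 14 genes in UNT A and 13 in UNT B, but for 3 in OXPT A and 6 in OXPT B, so the groups did not overlap. Over all 10823 genes with a called start site the numbers were 8320, 9218, 7647 and 6255 in the same order, so fewer starts were called in OXPT in general. The start site was called in both UNT but in no OXPT library for 5 of the 14 genes and in all 4 libraries for 2. For comparison, the start sites of the 22 cytosolic ribosomal protein genes were called for 20, 22, 22 and 22 genes in UNT A, UNT B, OXPT A and OXPT B.

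The mitotic start sites had the following values. Polo-like kinase PLK1, which drives centrosome maturation and mitotic entry, had folds of 4.96 in UNT A and 4.97 in UNT B at chr16:23679025-23680355 and no call in either OXPT library. Cyclin B1 (CCNB1), the partner of CDK1 at mitotic entry, had 2 lost regions at its start, with folds of 4.97 and 3.68 at chr5:69166290-69166784 and of 5.68 and 2.81 at chr5:69167229-69168067. The start of cyclin A2 (CCNA2) had folds of 4.03 and 3.34 in UNT and was not called in OXPT. Aurora kinase B (AURKB), of the chromosomal passenger complex, had 3 lost regions, of which that at the start had folds of 4.04 and 3.04. The spindle checkpoint kinase BUB1B had 3.41 and 3.79 in UNT and no call in OXPT. Aurora kinase A (AURKA) lost a region with folds of 4.69 and 5.32, while a peak with a fold of 2.64 remained within 1 kb of a start in OXPT B. At the start of CDK1 peaks were called in UNT A (4.38), UNT B (6.43) and OXPT B (4.43), and at that of CDC20, the activator of the anaphase-promoting complex, in all 4 libraries (3.89, 3.21, 6.06 and 3.19). Topoisomerase TOP2A and the spindle motor KIF11 each had 1 lost region, with another start-site peak called in OXPT A for TOP2A (3.74) and in both OXPT libraries for KIF11 (5.93 and 4.99). Of the 11 lost regions, those of PLK1 and AURKA had the most calls in the other 6 UNT libraries, with 4 each. They were called in 0 and 3 of the other 6 OXPT libraries. The remaining lost regions were called in 1 to 3 of the other UNT and 0 to 2 of the other OXPT libraries. For BUB1B and 1 region of AURKB the calls were equal, with 2 on each side.

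The promoters of the 3 mitotic genes below are printed because lost regions lay within 1 kb of their starts, beside the printed windows and not overlapping them, and because they hold the CHR element or CCAAT boxes typical of cell cycle genes. They run from 250 bases before to 50 bases after the RefSeq start (GRCh38.p14), 5′ to 3′ in the direction of the gene, with CHR elements (TTTGAA or TTCGAA on either strand) and CCAAT boxes on either strand in capitals.
CCNB1: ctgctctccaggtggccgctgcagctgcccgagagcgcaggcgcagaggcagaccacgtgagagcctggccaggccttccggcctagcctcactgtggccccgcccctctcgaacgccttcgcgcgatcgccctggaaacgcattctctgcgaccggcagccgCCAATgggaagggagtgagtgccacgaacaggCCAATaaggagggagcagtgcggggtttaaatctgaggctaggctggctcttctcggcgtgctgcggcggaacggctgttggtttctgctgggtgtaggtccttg
PLK1: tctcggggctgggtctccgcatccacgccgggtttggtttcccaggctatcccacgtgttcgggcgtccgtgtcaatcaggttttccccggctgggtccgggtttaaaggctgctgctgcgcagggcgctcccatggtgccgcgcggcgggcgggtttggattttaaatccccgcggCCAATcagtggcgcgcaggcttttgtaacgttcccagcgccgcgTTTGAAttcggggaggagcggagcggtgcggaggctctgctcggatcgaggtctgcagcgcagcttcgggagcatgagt
TOP2A: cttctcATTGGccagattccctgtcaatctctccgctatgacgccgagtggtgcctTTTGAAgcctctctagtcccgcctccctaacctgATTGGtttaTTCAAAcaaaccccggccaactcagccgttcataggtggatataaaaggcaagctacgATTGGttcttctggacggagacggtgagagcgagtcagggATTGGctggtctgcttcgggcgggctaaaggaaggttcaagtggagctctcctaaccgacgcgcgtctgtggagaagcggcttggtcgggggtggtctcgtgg
The windows are chr5:69166900-69167199 on the + strand for CCNB1, chr16:23678639-23678938 on the + strand for PLK1 and chr17:40417847-40418146 on the − strand for TOP2A. A CHR element was present in 9 of the 13 mitotic genes with a promoter sequence (69.2%) and a CCAAT box in 11 (84.6%), compared with 16.6% and 35.7% of all 27195 promoters. Of the 7 mitotic genes with a sequence and a start site in a lost region, 4 (57.1%) had a CHR element and 6 (85.7%) a CCAAT box. Among the 939 genes with a sequence and a start site in a lost region the shares were 14.7% and 37.5%. No promoter sequence was found for AURKA. The printed CCNB1 window holds 2 CCAAT boxes and no CHR element, that of PLK1 holds 1 of each, and that of TOP2A holds 4 CCAAT boxes and 2 CHR elements.

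The switched regions of the p53 target and G1/S lists are read against the 1.44% gained and 5.24% lost among all regions near protein-coding genes. None of these lists had more than 2 switched regions. In the list of 20 p53 arrest and feedback targets 2 of 63 regions were gained (3.17%) and 0 lost. Of these, MDM2, the ubiquitin ligase that limits p53, had a gained region 8.12 kb from its start (chr12:68799195-68800418) with folds of 3.44 and 3.01, and BTG2, an antiproliferative factor, had one at its start with folds of 4.07 and 3.64. Another peak at the BTG2 start was called in UNT, with folds of 3.67 and 3.04, so the gene was marked on both sides. The start of CDKN1A, which encodes the cyclin-dependent kinase inhibitor p21, was called in all 4 libraries with folds of 4.29 and 5.98 in UNT and 4.13 and 5.82 in OXPT, and the groups overlapped. In the list of p53 death targets and death receptors 0 of 62 regions were gained and 2 lost (3.23%), the lost ones lying at the neighbouring starts of FTL and PNPLA2. No region of the 46 near G1/S cyclins, kinases and inhibitors was switched in either direction.

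The lists of signalling, repair and stress genes are read against the 5.24% lost and 1.44% gained among all regions near protein-coding genes. In the NOTCH pathway 4 of 33 regions were lost (12.1%) and 0 gained, within 10 kb of NOTCH1, NOTCH3, HES1 and NRARP, the last inside the neighbouring EXD3. Among TGF-beta receptors and targets 6 of 95 were lost (6.32%), at TGFBR2, SMAD3, SMAD4, SKIL, TGFB1 and ID3, and 0 gained, which is near the share of all regions. At the start of SKIL, a repressor of SMAD signalling, folds of 4.96 and 4.3 in UNT stood against no call in OXPT. Near genes of the YAP and TEAD pathway 6 of 68 regions were lost (8.82%) and 2 gained. WWTR1, which encodes the coactivator TAZ, had 2 lost and 1 gained intronic regions, and AXL, a receptor tyrosine kinase, had a gained region that lies at the start of the neighbouring HNRNPUL1. For platinum transport and adduct repair the numbers were 6 lost (10.5%) and 1 gained of 57; the lost ones included the starts of BRCA1 (folds 5.41 and 4.21), of XPA (5.58 and 3.31) and of GSTP1, a glutathione transferase (4.65 and 5.13). Other start-site peaks were called in both OXPT libraries for GSTP1 (6.25 and 4.72) and in OXPT A for BRCA1 (4.08), but in neither for XPA. Stress-induced heat shock and unfolded protein genes had 4 of 70 regions lost (5.71%) and 0 gained, near the share of all regions, at the starts of HSPA5, TRIB3 and SQSTM1 and in a region shared by HSPA1A and HSPA1B, whose near-identical sequences leave its reads uncertain. Start-site peaks of HSPA5, TRIB3 and SQSTM1 were called in both OXPT libraries as well.

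Among MEF2 factors, class IIa HDACs and partner targets 3 of 83 regions were lost and 1 gained. HDAC4 lost an intronic region 58.8 kb from its start with folds of 3.82 and 2.87, and HDAC9 gained an intronic region with folds of 3.78 and 3.63 that held a p53 site with 1 mismatch. MEF2A lost a region at its start with folds of 3.23 and 5.32, and MEF2C an intronic one with folds of 3.34 and 2.35. The WNT targets had 3 of 91 regions lost and 2 gained. The list named BCL2 family survival genes had 3 of 48 lost and 1 gained. Despite its name this list also holds death genes, among them BCL2L11 and BAK1. Its lost regions lay at the start of BCL2L11, at the neighbouring starts of BCL2L2 and PPP1R3E, and between genes near BCL2L1 and COX4I2. The AP-1 and ATF list had 2 lost regions, at FOS and beside FOSL1, and 1 gained region in FOSL2, out of 78. For NF-kB and inflammatory targets 1 of 30 was lost, at NFKBIA, whose start was also called in both OXPT libraries. The intestinal epithelial transcription factors had 1 gained region of 51, at ELF3, and the EGFR family 1 gained of 63, at AREG. Cytosolic ribosomal proteins had 1 lost region of 62, nucleolar and RNA polymerase I genes 1 of 37 and keratins and claudins 1 of 58. Each of these counts rests on 1 to 3 regions and is read against the shares of all regions given above.

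**Figure D3:**
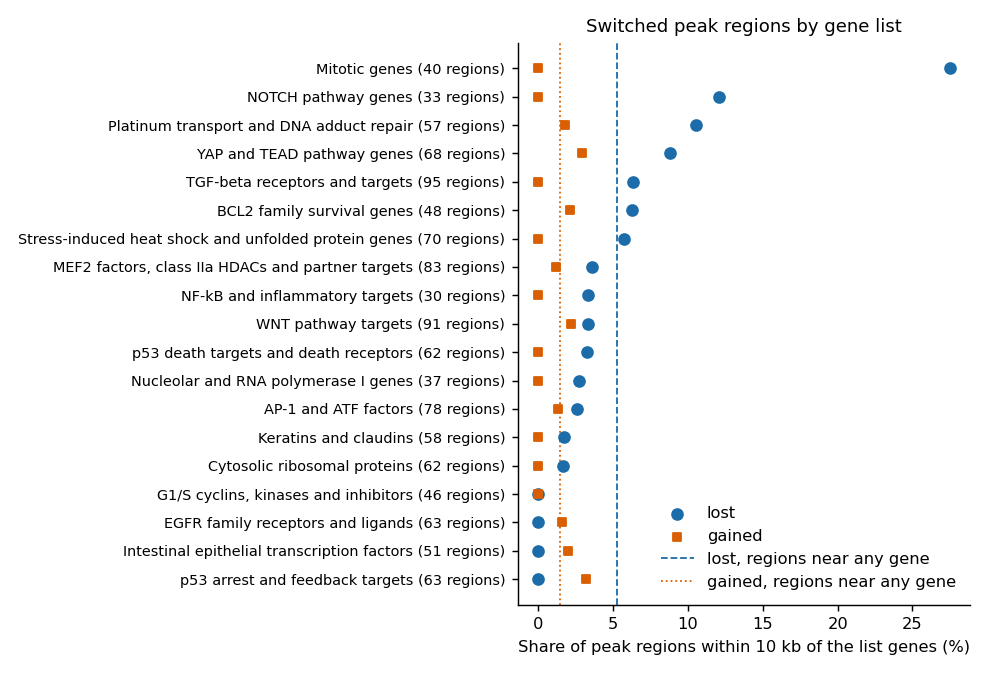
Share (%) of the peak regions within 10 kb of each list's genes that were lost (circles) or gained (squares), with dashed and dotted lines at the shares over regions near any protein-coding gene (5.24% lost, 1.44% gained). The mitotic genes had 27.5% lost and 0% gained, and both marks of the G1/S list lie at 0.

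The start-site calls fitted the labelled cell type. Of 10 colorectal epithelial markers 8 had a start-site peak in all 4 libraries, among them EPCAM, KRT8, KRT19 and CDX2; CDH1 was not called in OXPT B, and VIL1 was called in none. Of 17 markers of blood, stroma, endothelium, liver, nerve and muscle 14 were called in no library, COL1A1 was called in all 4 and RBFOX3 in 3. The start of HDAC4 was acetylated in every library, with folds of 3.77 and 3.98 in UNT and 3.45 and 3.83 in OXPT, which says nothing on the silencing itself, since esiRNA acts on the transcript and RNA was not measured in these libraries. The start of FBXW7 had folds of 3.27 and 3.25 in UNT and 3.52 and 4.06 in OXPT.

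The numbers of SEs gave no common direction. SE counts were 511 in UNT A and 721 in OXPT A, but 771 in UNT B and 453 in OXPT B, so the log2 ratio of OXPT to UNT was 0.50 in pair A and −0.77 in pair B (mean −0.14 ± 0.89, SD, n = 2; two-sided exact permutation test within letters, p = 1, smallest possible 0.5). For peaks the ratios were −0.01 and −0.50 (mean −0.25 ± 0.35, SD, n = 2; two-sided exact permutation test, p = 0.5). In WT esiCT cells the corresponding SE ratios were −0.94 and −2.16, and the difference between esiHDAC4 and esiCT was 1.44 in A and 1.39 in B (mean 1.41 ± 0.04, SD, n = 2; two-sided exact permutation test, p = 0.5). For peaks that difference was 0.19 and 0.76 (mean 0.48 ± 0.41, SD, n = 2; two-sided exact permutation test, p = 0.5). With 2 pairs these permutation tests cannot give a p below 0.5.

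The 28 gained SE regions had a median span of 14.3 kb (4.16 to 42.0 kb); 8 covered a start site, 9 lay within a gene and 11 between genes. The 10 longest were named after RBFOX3, CA2, SIPA1L1, SFN, ACTR5, ARVCF, LBX1, SH3BP4, ACTBL2 and TBCD. The longest, 42.0 kb within RBFOX3 (chr17:79135679-79177716), held 0 and 1 peaks in UNT A and B and 3 and 6 in OXPT A and B. The region 168 kb from the start of CA2, which encodes a carbonic anhydrase, held 2 peaks in each UNT library and 9 and 8 in OXPT A and B, and 4 of its peak regions were gained. A region of 31.3 kb (chr1:26847914-26879215) covered the start of SFN, which encodes the p53 target 14-3-3 sigma, an inhibitor of mitotic entry. Its peaks spanned 4.96 kb in UNT A, 5.34 kb in UNT B, 7.62 kb in OXPT A and 3.71 kb in OXPT B, so the groups overlapped and the switch there was in SE status, not in the presence of acetylation. A region of 9.81 kb near HLA-B, chosen after its values were seen, held no peak in either UNT library and 3 and 4 in OXPT, and 3 of its peak regions had a p53 site. Also outside the 10 longest was a gained SE within ATF3, a stress-induced transcription factor (1 peak in each UNT library, 3 and 4 in OXPT), again chosen after its values were seen. At ATF3 the length in peaks was 0.595 and 0.544 kb in UNT and 2.39 and 2.38 kb in OXPT. More kb in both OXPT libraries was seen in 12 of the 28 gained SE regions, and the reverse in 3. Neither the ATF3 region nor that near HLA-B was an SE in any of the other 12 libraries.

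The 79 lost SE regions had a median span of 16 kb (4.68 to 45.2 kb); 15 covered a start site, 40 lay within a gene and 24 between genes. The 10 longest were named after CAMK2D, EMB, ANXA1, NR2F1, ENO1, RAD51B, AP1S3, SREBF1, SPATA31A5 and DENND5B. Within CAMK2D, which encodes a calcium and calmodulin-dependent kinase, the 45.2 kb region (chr4:113432895-113478066) had 11.4 and 19.1 kb in peaks in UNT A and B and 6.94 and 4.9 kb in OXPT A and B. That covering the start of ANXA1, the phospholipid-binding annexin A1, had 4.82 and 8.54 kb against 4.08 and 4.41 kb. The region over SREBF1, the master regulator of lipid synthesis genes, had 8.69 and 10.8 kb against 6.8 and 4.28 kb, and that over the glycolytic enzyme gene ENO1 12.2 and 11.5 kb against 8.68 and 7.98 kb. In RAD51B, a factor of homologous recombination, 7 and 10 peaks in UNT stood against 3 and 2 in OXPT in the longest of its lost SE regions (31.2 kb). The region named after EMB lay 782 kb from that start, and its highest peak had a fold of only 3.4, 3.26, 1.6 and 2.6 in UNT A, UNT B, OXPT A and OXPT B.

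The switched SE regions were next compared by their length in peaks. The SE calls of these same libraries chose the regions, so the counts are a description, and no share over all merged SE regions was computed. Over all peaks the lists covered 16.3 and 21.9 Mb in UNT A and B and 14.5 and 12.3 Mb in OXPT A and B. In 68 of the 79 lost SE regions both UNT libraries had more kb in peaks than either OXPT library, and 46 contained a lost peak region. In 12 of the 28 gained SE regions both OXPT libraries had more kb in peaks than either UNT library, in 3 the reverse was seen, and 8 contained a gained peak region. Peaks were present in all 4 libraries in 23 gained and 72 lost SE regions, so most switched SE regions held acetylation in every library. A p53-site region lay in 3 gained and 1 lost SE region.

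**Figure D4:**
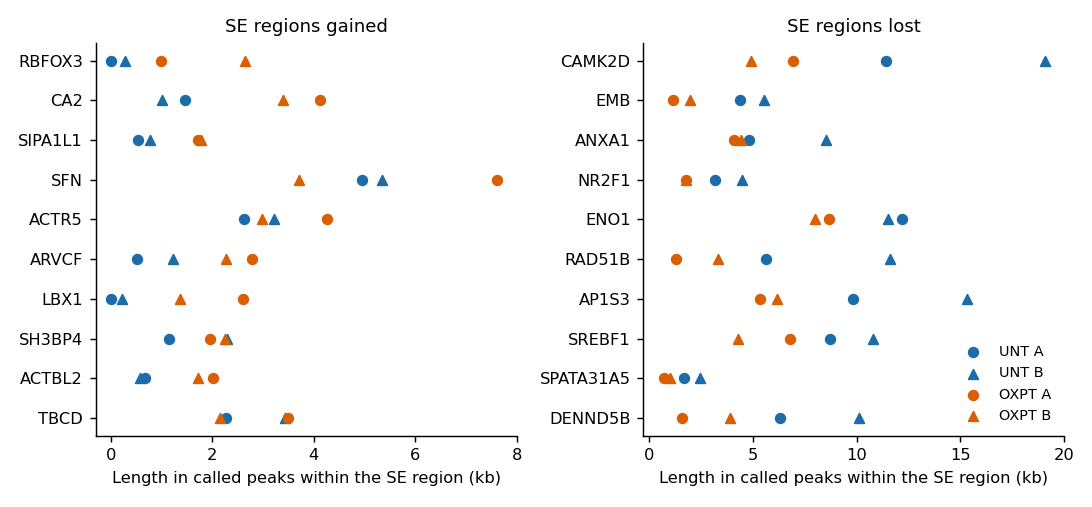
Length in called peaks (kb) within the 10 longest gained (left) and lost (right) SE regions, named by gene, in UNT (blue) and OXPT (orange) libraries A (circles) and B (triangles). In CAMK2D the UNT libraries had 11.4 and 19.1 kb and the OXPT libraries 6.94 and 4.9 kb, whereas at SFN the groups overlapped.

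Regions called in all 4 libraries were compared by their summit fold. No region of 6753 had an adjusted p under 0.05 in either direction (0% higher and 0% lower; limma with replicate and condition on quantile-normalised log2 fold, Benjamini-Hochberg adjustment), and 212 were higher and 210 lower in OXPT at an unadjusted p under 0.05. The smallest adjusted p from limma was 0.142, for an intronic region of CUX1 and for the start of CCND1. In this region at the start of CCND1, which encodes the G1 cyclin D1 (chr11:69641244-69644332), the fold was 7.43 in UNT A, 6.8 in UNT B, 2.89 in OXPT A and 3.32 in OXPT B, a log2 difference of −1.06 ± 0.26 (SE). Another start-site peak of CCND1 was called in both OXPT libraries, with folds of 5.39 in A and 5.53 in B. At CUX1, a homeodomain factor, it was 9.46 and 8.06 in UNT and 4.39 and 3.12 in OXPT (−1.08 ± 0.26). The other regions with the lowest differences included those at MPP7 (−1.01) and NEMP1 (−0.98). Those with the highest included LSM4 (0.99), CDK7, the kinase of the CDK-activating complex and of TFIIH (0.91), and IGFL3 (0.88). In all of these the UNT and OXPT folds did not overlap, which is largely set by their choice for the largest differences. Their adjusted p from limma ran from 0.142 to 0.348. Without scaling, the median difference over all regions was −0.153 on the log2 scale, and 61 regions were higher and 598 lower at an unadjusted p under 0.05. Quantile normalisation removes a common shift, so the differences above are relative to it. The 25 shared regions with a p53 site had a median log2 difference of 0.35, and 22 of them were higher in OXPT, compared with a median of 0 and 3400 of 6753 higher over all.

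The switched regions were then looked up in the other 12 H3K27ac libraries, none of which the rule had used. In WT esiCT cells, gained regions were called in 38.7% of cases in UNT A, 31.8% in UNT B, 63.8% in OXPT A and 29.1% in OXPT B, so the OXPT share was higher in A and lower in B. Over all merged regions the shares were 56.9%, 51.8%, 43.4% and 18.4%, the list of OXPT B being short. Lost regions were called in 79.9% and 70.8% of cases in WT esiCT UNT A and B and in 46.7% and 10.3% in OXPT A and B. The gained regions with a p53 site were called in 5.88% and 10.3% of cases in WT esiCT UNT and in 73.5% and 52.9% in OXPT. By the same pattern of calls, 83 of the 597 gained regions (13.9%) were called in both OXPT and neither UNT library of WT esiCT cells, compared with 0.635% of all merged regions. All 83 lay away from start sites: of the 116 gained start-site regions 0 showed the pattern in WT esiCT cells, and 19 (16.4%) showed the opposite one, called in both UNT but neither OXPT library. Over all gained regions 43 (7.2%) showed the opposite pattern, compared with 9.8% of all merged regions. Of the 1981 lost regions 479 (24.2%) were called in both UNT but in no OXPT library there, and 2 (0.101%) showed the opposite pattern.

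In FBXW7 KO cells gained regions were called at a higher share in each OXPT library than in the UNT library of its letter. With esiHDAC4, they were called in 20.9% and 0.503% of cases in UNT A and B and in 52.1% and 16.6% in OXPT A and B (all merged regions 37.1%, 2.47%, 31.8% and 10.0%), and 61 (10.2%) met the pattern of both OXPT and neither UNT library, compared with 0.931% of all regions. In KO esiCT cells they were called in 9.05% and 2.85% of cases in UNT and in 43.7% and 13.7% in OXPT, but all merged regions were also called more in OXPT there (22.8% and 9.92% in UNT, 41.6% and 14.2% in OXPT), as were lost regions (21.6% and 7.22% in UNT, 49.6% and 10.1% in OXPT). The pattern was met by 42 gained regions (7.04%) in KO esiCT cells, compared with 2.61% of all. Of the lost regions 7 of 1981 (0.353%) were called in both UNT but in no OXPT library of KO esiHDAC4 cells, compared with 0.12% of all regions. In KO esiCT cells these were 8 (0.404%), compared with 0.181% of all. The opposite pattern was shown by 4 lost regions (0.202%) in KO esiHDAC4 cells, compared with 0.931% of all regions. In KO esiCT cells 65 (3.28%) showed it, near the 2.61% of all. Some of these lists were short, with 1752 peaks in KO esiHDAC4 UNT B and 6126 in KO esiCT UNT B, which limits what could be called in both UNT libraries there.

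The merged regions with a p53 site were also looked up in the 3 other backgrounds. Of the 299 such regions 45 (15.1%) were called in both OXPT and neither UNT library in WT esiCT cells, 40 (13.4%) in KO esiHDAC4 cells and 29 (9.7%) in KO esiCT cells, compared with 0.635%, 0.931% and 2.61% of all merged regions. The opposite pattern was shown by 0 of the 299 in each of the 3. The regions were defined by merging the lists of WT esiHDAC4 cells, so sites marked only in other backgrounds were not counted, and most of the 299 had entered through OXPT calls alone, as given above, which favours OXPT-only patterns.

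**Figure D5:**
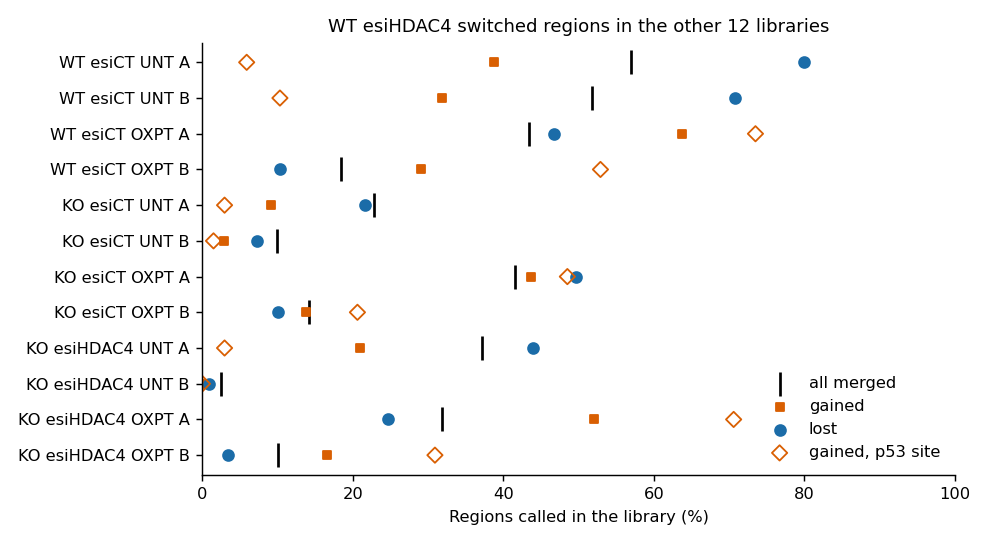
Share (%) of the regions switched in WT esiHDAC4 cells that were called in each of the other 12 libraries, for gained (squares), lost (circles) and gained p53-site regions (open diamonds), with bars for all merged regions. In WT esiCT UNT A 5.88% of the gained p53-site regions were called, compared with 73.5% in OXPT A.

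Lost SE regions were also mostly SEs in untreated WT esiCT cells. Of the 79 regions 74.7% were SEs in WT esiCT UNT A and 93.7% in UNT B, compared with 16.5% and 7.59% in OXPT A and B; over all 1184 merged SE regions the shares were 51.6%, 70.9%, 29.5% and 21.5%. The full pattern of both UNT and neither OXPT library was met by 43 (54.4%), compared with 19.6% of all. The gained SE regions met the reverse pattern in WT esiCT cells in 1 case of 28 (3.57%), that near CA2, compared with 0.422% of all, and 1 met the opposite pattern. CAMK2D, the longest of the lost SEs, was an SE in both UNT libraries and in neither OXPT library of WT esiCT cells as well, and SREBF1 was an SE there only in UNT B.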

How the data were processed

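H3K27ac ChIP-seq was done in HCT-116 cells on pooled experiments (3). The authors used Trimmomatic 0.39 for trimming, Bowtie2 2.4.4 for alignment (hg38), SAMtools 1.18 to remove duplicates, MACS2 2.2.7.1 to call peaks and ROSE to call SEs; versions are from the submitters' processing notes. There is 1 list per library. The deposited peak lists hold a summit fold, which is a ratio of reads to background, −log10 p, −log10 q and a score; the deposited SE lists hold positions only, and the H3K4me1 filter named in the methods is not stated for them. Coordinates matched the chromosome lengths of the hg38 reference. Reads at the summit and the local background were solved from fold and p (Poisson tail, tolerance 0.01), which gave values for at least 99.97% of peaks.

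Regions were merged with Python 3.11.15 by 1 bp. Genes came from GENCODE 44 (protein-coding; start sites within 1 kb) and promoters from RefSeq (GRCh38.p14). limma 3.58.1 had the replicate letter and condition as terms, the formula of the study's own count model, which needs reads not used here. Numbers were tested by exact permutation within letters. Named regions were the 10 of each direction with the highest lower fold, 1 a gene; the 10 longest SEs; the 5 shared regions of each direction with the largest difference; and all switched regions of 19 gene lists. The p53, CHR and CCAAT searches were added after the data were seen. Members and lists were chosen with earlier results of these data known. Scripts were tested on simulated data. Input libraries and peaks outside chromosomes 1 to 22 and X were not used in the comparisons. Some regions chosen by these rules are not reported here.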

Additional observations from a re-analysis of the deposited data

Results flagged for a closer look

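Peaks on 2 unplaced contigs that carry ribosomal DNA lay outside the chromosomes compared above. The 45S ribosomal RNA gene aligned to both contigs, with 99.7% and 97.4% identity. In HDAC4-silenced WT cells 18 peaks were called there in OXPT A and 21 in OXPT B, compared with 4 in UNT A and 10 in UNT B, and they covered 17.1 and 15.7 kb, compared with 6.75 and 8.56 kb. This signal stood out because it lies in data that no comparison of the report uses and exceeded the untreated libraries in peak number and length. The highest fold there did not: it was 4.95 and 4.97 in OXPT A and B and 3.67 and 6.94 in UNT A and B. In WT esiCT cells 14 and 13 peaks in OXPT stood against 6 and 6 in UNT. Over the 4 backgrounds the OXPT library had more such peaks and more kb than the UNT library of its letter in 8 of 8 pairs. In some of these pairs the whole peak list was also longer in OXPT. These were KO esiCT A (21875 peaks in OXPT, 12639 in UNT), KO esiCT B (8216, 6126) and KO esiHDAC4 B (6083, 1752). In the other pairs, among them all WT pairs, the UNT list was the longer one. Ribosomal DNA is repeated in the genome, so reads of many copies fall on these contigs. The cause of the difference was not tested.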

How the results depend on the processing

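Of 56 alternatives for the main results 44 were counted as unchanged, in direction or, for counts of regions, within 1.5 times. These 44 include the limma settings, which all called 0 regions and so have no direction to keep. They also include the peak and SE numbers with no replicate block, whose mean ratio is the same by construction. The tally is therefore not a measure of robustness. A −log10 q of at least 10 left 19 gained and 209 lost peak regions, fewer because fewer peaks enter. Leaving out replicate A or B removes the need for 2 agreeing libraries and gave 5593 to 8034 gained and 8576 to 15236 lost peak regions, and 110 to 379 gained and 182 to 452 lost SE regions. The SE number changed sign per 1000 peaks (0.12) and without replicate B (range 0.50 to −0.77); in base pairs covered the ratio was −0.48. For peaks the leave-out range was −0.50 to −0.01, and with a −log10 q of at least 10 the ratio was −0.96. For the difference between silencings it was 0.19 to 0.76 for peaks and 1.39 to 1.44 for SEs. The letters give 2 pairs only; A minus B in UNT and in OXPT correlated across the 6753 shared regions with r = 0.29, a hint of pairing from regions that are not independent. With the pairing or with no replicate block, the mean log2 ratio was −0.25 for peaks (exact permutation p = 0.5 and 0.333) and −0.14 for SEs (1 and 0.667). With no replicate block limma called 0 regions, with 100 higher and 82 lower at an unadjusted p under 0.05; it called 0 under every other scaling and without each library in turn, where the lone sample of a group is assumed to vary like the other group. Merging, coverage and equal list lengths gave 555 to 802 gained and 1326 to 2882 lost regions, and peaks above a fold of 3.4, chosen after seeing the data, 466 and 1580. The p53 searches were also chosen after seeing the data: the site was in 1.17% of gained, 0% of lost and 0.131% of all regions in 200 bases around the summit, and in 23.6%, 1.31% and 4.23% with 3 mismatches. Depth limits the gained set: 48.6% of it was strong enough to be called in UNT A at lowest background.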
